A study of Arabidopsis thaliana with 11 samples.

Results

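The genes described here encode enzymes that attach a sugar or glutathione to small molecules, and they were measured as newly made RNA in Arabidopsis root protoplasts. They were chosen by a rule on their names, which was set with earlier results of these data known. A gene was taken when the table of the array platform pairs a probe set with that gene only and its symbol is UGT with digits and a letter, or GSTU, GSTF, GSTL, GSTT or GSTZ with digits. This gave 61 genes, each with 1 probe set, among the 22810 probe sets of the array. Of these, 47 are UGT genes, 11 are GSTU, 2 are GSTF and 1 is GSTL3, and no GSTT or GSTZ symbol was found. Genes of these families whose probe sets the platform table does not pair with 1 gene were not analysed here.

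4tU-labeled RNA was hybridized to 11 ATH1 arrays, 6 of protoplasts transfected with 35S::GR::bZIP1 (4tU-bZIP1) and 5 of protoplasts with the empty vector, which carries GR alone under the same promoter (4tU-EV). All cells came from roots of wild-type Columbia Col-0 seedlings, and all received, in turn, nitrogen as KNO3 and NH4NO3 at 20 mM each (1 h 40 min by the labels), cycloheximide at 35 µM for 20 min to block translation, dexamethasone at 10 µM for 5 h to let the GR fusion enter the nucleus, and 4tU at 1.5 mM with uracil at 0.2 mM for 20 min. The bZIP1 fusion was thus expressed from a constitutive promoter in transfected and sorted cells, and the contrast is that of bZIP1 overexpression with GR alone, not of wild type with a mutant. The labels call each array a biological replicate. Of 20 markers of root and leaf cell types, 2 have a probe set that the platform table names, so the labeled root tissue could hardly be checked. CO2 (cortex) was at the lowest value of the table on every array. EXPA7 (root hairs) was between 4.93 and 54.98 in 4tU-bZIP1 and between 4.93 and 5.18 in 4tU-EV. Its mean in 4tU-bZIP1 was 13.3 ± 20.4 (SD, n = 6), a spread that came from its highest array alone. Neither marker thus bore out the tissue. In a bulk sample of this kind, fewer cells of a type and less labeled RNA per cell cannot be told apart.

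Family 1 UDP-glycosyltransferases, the UGTs, move a sugar, most often glucose, from a UDP-sugar to hormones, phenolics, sterols and foreign compounds. The product is more soluble and often inactive, and it can be stored in the vacuole. Glutathione transferases (tau class GSTU, phi class GSTF, lambda class GSTL) use glutathione to conjugate electrophiles or to reduce them. Many genes of both families are known to be induced by foreign chemicals, wounding and oxidative stress. TGA factors, which like bZIP1 belong to the bZIP class, control part of that response.

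Values are intensities on the linear scale as deposited, and a difference is 4tU-bZIP1 minus 4tU-EV in mean log2. Intensities of different probe sets depend on the probes, so differences in level between genes were not tested, an order by mean intensity serves only to choose and arrange genes, and 32 and 100 are only fixed marks. Of the 61 genes, 15 were at 32 or more on every array, 9 of them at 100 or more. These 15 are 24.6% of the genes, where 20.9% of all probe sets that are not controls were at 32 or more on every array. A further 10 were at 32 or more on some arrays, and 36 were below 32 on all arrays. Below 16 on every array were 32 genes, 52.5% of them, against 45.7% of the 22746 probe sets that are not controls. The lowest value of the table is 4.92, and 5 genes had it on all 11 arrays (GSTU15, GSTU21, UGT71C1, UGT71C3 and UGT84B1, the last an enzyme that glucosylates auxin). They could not be tested. The other 56 were tested. A gene at the lowest value may still be transcribed, since this value is a limit of the array.

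By family, 10 of 47 UGT genes and 4 of 11 GSTU genes were at 32 or more on every array, as was GSTL3, and neither of the 2 GSTF genes was. The mean intensity of the UGT genes lay between 4.92 and 1619 in 4tU-bZIP1 (median 9.45) and between 4.92 and 1577 in 4tU-EV (median 7.74). For the GSTU genes it lay between 4.92 and 1389.6 in 4tU-bZIP1 (median 7.41) and between 4.92 and 1929 in 4tU-EV (median 5.72). Most members of both families were thus near the low end in both groups, with a small number of clear signals.

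**Figure D1:**
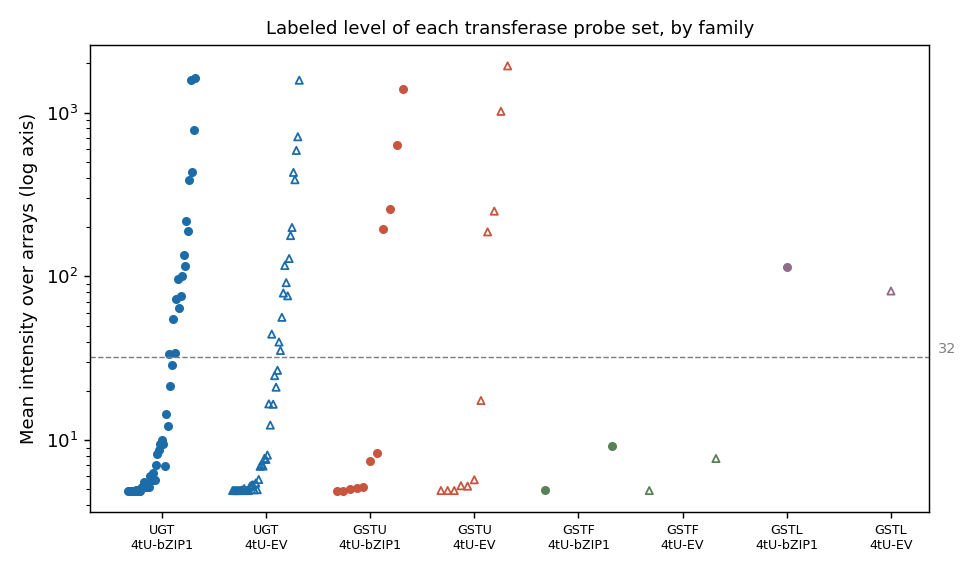
Mean intensity over arrays (log axis) of each of the 61 genes, by family, in 4tU-bZIP1 (filled circles) and 4tU-EV (open triangles); within a column genes are ordered by their mean log2 over 11 arrays. The dashed line marks 32, and 36 genes were below it on all arrays.

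The UGT probe sets with the highest mean log2 over 11 arrays were those of UGT87A2, UGT85A2 and UGT73B4, and of these none differed past the threshold. UGT87A2 (AT2G30140), known for a role in flowering time, had 1619 ± 402 in 4tU-bZIP1 (SD, n = 6) and 1577 ± 190.2 in 4tU-EV (SD, n = 5). Its log2 difference was 0.010, with a 95% interval of -0.37 to 0.39 by limma. UGT85A2 (AT1G22360) had 778 ± 227 in 4tU-bZIP1 (SD, n = 6) and 712 ± 227 in 4tU-EV (SD, n = 5), a log2 difference of 0.16 (interval -0.48 to 0.79). UGT73B4 (AT2G15490), which can glucosylate transformation products of the explosive TNT, had 432 ± 74.4 in 4tU-bZIP1 (SD, n = 6) and 587 ± 184 in 4tU-EV (SD, n = 5). Its log2 difference was -0.41 (interval -0.83 to 0.0051), with an adjusted p = 0.85 from limma and an exact two-sided permutation p = 0.035. The ranges of UGT73B4 overlapped, and its highest value, 906, was that of 4tU-EV replicate 5. Without that array its log2 difference was -0.24.

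Whether bZIP1 changed the labeled RNA of these genes was tested with limma over all 19525 features, and a gene was called at an adjusted p (Benjamini-Hochberg) under 0.1, the threshold used throughout. None of the 56 genes passed it, higher or lower. Over all features 0.164% were called higher and 0.0205% lower, 0.184% in all, so that a list of this size would hold about none at the background rate. At an unadjusted p under 0.05, 1 gene was higher, where the background was 1.51%, and 3 were lower, where it was 3.24%. These shares are near the background. The median log2 difference was 0.017 over the 56 genes and 0.0014 over all features. For the 21 genes with a mean log2 of 5 or more it was 0.0095, with 11 higher and 10 lower, and for the 7000 such features it was -0.12. The median size of the difference, whatever its sign, was 0.28 for these 21 genes and 0.29 for these features. The 95% interval reached between 0.37 and 2.00 on the log2 scale to either side over the 21 genes, with a median of 0.72. These intervals are not adjusted for the number of features, and the threshold asks for more. UGT73B1, at a log2 difference of 1.02 (interval 0.61 to 1.44), did not pass it. Moderate changes of single genes could thus be missed with these arrays, and so could larger ones where the interval is wide.

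**Figure D2:**
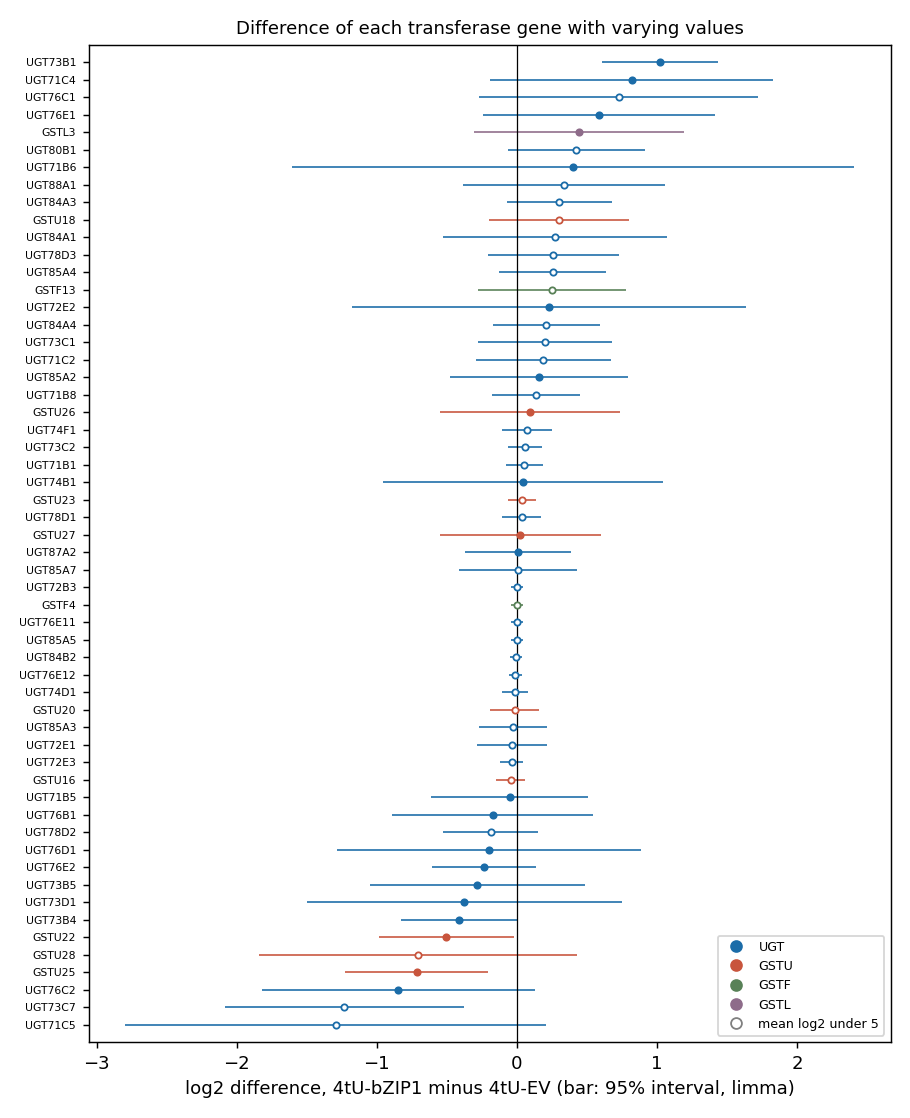
The log2 difference, 4tU-bZIP1 minus 4tU-EV, with its 95% interval from limma, for the 56 genes with varying values, coloured by family. Open circles have a mean log2 under 5; the intervals of UGT73B1, UGT73C7, GSTU25 and GSTU22 leave out 0, before any adjustment for the number of features.

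The gene that came nearest to the threshold was UGT73B1 (AT4G34138), of a group of UGTs known to glucosylate flavonoids and other phenolics in vitro. Over the 6 arrays of 4tU-bZIP1 its intensity had a lowest value of 52.2, a median of 67.5 and a highest value of 107, against 31.6, 36.6, 33.3, 29.7 and 45.1 in the 5 arrays of 4tU-EV. Every array of 4tU-bZIP1 was above every array of 4tU-EV. This was the only gene of the 56 whose groups did not overlap, where 0.405% of all features had groups apart with 4tU-bZIP1 higher and 0.451% with it lower. The log2 difference was 1.02 (SE 0.19, limma adjusted p = 0.13, two-sided exact permutation test p = 0.0022, the smallest these group sizes allow). UGT73B1 was past the threshold with arrays weighted by their quality (adjusted p = 0.0061 from limma), with values under 16 raised to 16 (adjusted p = 0.078) and without 4tU-bZIP1 replicate 3 (adjusted p = 0.096), where the shares of features called higher were 0.338%, 0.314% and 0.146%. Over all 22 alternatives its adjusted p ran from 0.0061 to 0.82 and its log2 difference from 0.90 to 1.11.

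The highest UGT73B1 value came from 4tU-bZIP1 replicate 1, an array that stood apart: over all features it correlated with the rest at a median of 0.878, against 0.943 to 0.965 for each of the other 10. Without that array UGT73B1 had a log2 difference of 0.90 (adjusted p = 0.13 from limma), so most of the difference was there in the other arrays too. The neighbors of UGT73B1 in the genome, UGT73B2 and UGT73B3, share 1 probe set and are not among the 61 genes. This probe set, looked at after the values of UGT73B1 were seen, had 2584 ± 956 in 4tU-bZIP1 (SD, n = 6) and 3281 ± 282 in 4tU-EV (SD, n = 5). Its log2 difference was -0.42 (adjusted p = 0.85 from limma), opposite in sign to that of UGT73B1.

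Lower at an unadjusted p under 0.05 were UGT73C7, GSTU25 and GSTU22. UGT73C7 (AT3G53160), which glucosylates phenylpropanoid acids, had intensities close to the low end of the array: a lowest value of 5.08, a median of 5.501 and a highest value of 14.1 in 4tU-bZIP1, against 27.0, 15.3, 17.1, 17.1 and 6.61 in 4tU-EV. The groups overlapped through 4tU-EV replicate 5 and 4tU-bZIP1 replicates 2 and 3. The log2 difference was -1.23 (SE 0.38, limma adjusted p = 0.73, two-sided exact permutation test p = 0.019). With values under 16 raised to 16 it was -0.19 (adjusted p = 0.84), so its size rests on values under 16.

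GSTU25 and GSTU22 were well above the low end in both groups. GSTU25 (AT1G17180), a tau class enzyme known to act on TNT, had a lowest value of 364, a median of 665 and a highest value of 868 in 4tU-bZIP1, against 1236, 889, 906, 1192 and 865 in 4tU-EV. Only the highest array of 4tU-bZIP1, replicate 2, reached the lowest of 4tU-EV, replicate 5. The log2 difference of GSTU25 was -0.72 (SE 0.23, limma adjusted p = 0.79, two-sided exact permutation test p = 0.013), and from -0.82 to -0.55 over the alternatives. GSTU22 (AT1G78340), also of the tau class, had a lowest value of 783, a median of 1414 and a highest value of 1944 in 4tU-bZIP1, against 2150, 1549, 2381, 1937 and 1627 in 4tU-EV. The groups of GSTU22 overlapped more widely, with replicate 1 of 4tU-bZIP1 above 3 of the 5 arrays of 4tU-EV. Its log2 difference was -0.50 (SE 0.22, limma adjusted p = 0.85, two-sided exact permutation test p = 0.035), and from -0.63 to -0.35 over the alternatives. In both genes the lowest array was 4tU-bZIP1 replicate 6.

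**Figure D3:**
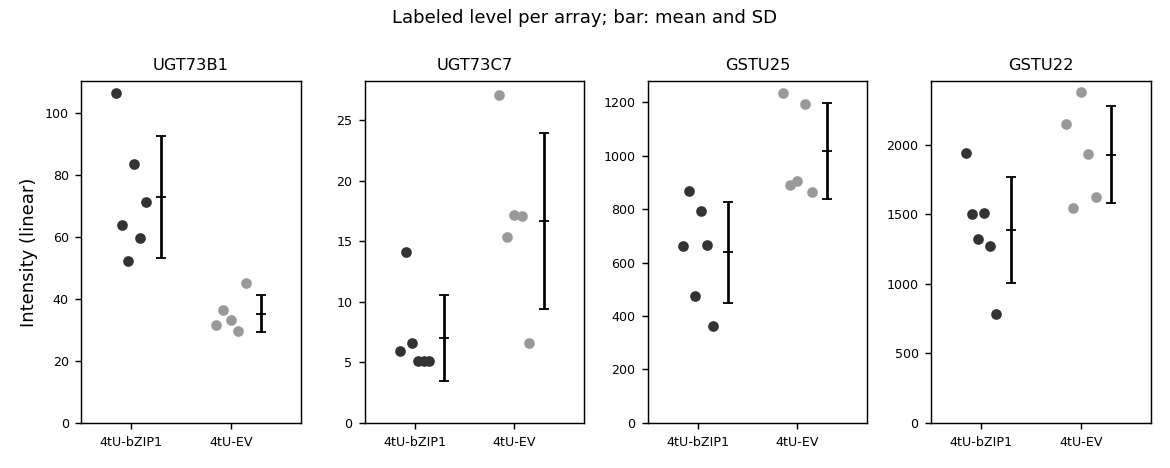
Intensity (linear axis from 0) on each array of 4tU-bZIP1 (dark points, n = 6) and 4tU-EV (grey points, n = 5) for UGT73B1, UGT73C7, GSTU25 and GSTU22, with the mean and SD as a bar beside the points. The groups are apart for UGT73B1 and overlap for the other genes.

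GSTU25 and GSTU22 are also the only genes of the 61 on the lists of genes bound by bZIP1 in ChIP-Seq 5 h after dexamethasone, which come from separate experiments. GSTU25 is on the lists of both replications and GSTU22 on that of replication 1. At an unadjusted p under 0.05, 31 of 340 named features on the list of replication 1 were lower (9.12%) and 16 were higher (4.71%). On the list of replication 2, 18 of 166 were lower (10.8%) and 5 were higher (3.01%), and of the 112 on both lists 13 were lower (11.6%) and 4 were higher (3.57%). Over all 19525 features, named or not, 3.24% were lower and 1.51% were higher, so both shares were below those of the lists. The sets are unlike, since 11767 of all features are named by the platform table and the lists hold only such features. A share over named features, or over features of like level, was not taken, so an excess on the lists is not shown. The counts of the lists include GSTU25 and GSTU22, and the shares were not tested against each other.

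The other tau class genes at 32 or more on every array, GSTU27 and GSTU26, had log2 differences near 0. GSTU27 had 259 ± 90.0 in 4tU-bZIP1 (SD, n = 6) and 250.1 ± 62.6 in 4tU-EV (SD, n = 5), a log2 difference of 0.024 (interval -0.55 to 0.60), and -0.23 with array weights. GSTU26 (AT1G17190), next to GSTU25 in the genome, had 195 ± 54.4 in 4tU-bZIP1 (SD, n = 6) and 187 ± 58.2 in 4tU-EV (SD, n = 5), a log2 difference of 0.094 (interval -0.55 to 0.74). No test of GSTU25 against GSTU26 was made, and their intervals overlap. GSTL3, of the lambda class, which reduces glutathione adducts of flavonols, had 115 ± 49.4 in 4tU-bZIP1 (SD, n = 6) and 81.4 ± 28.0 in 4tU-EV (SD, n = 5). The GSTL3 log2 difference was 0.44 (interval -0.30 to 1.19, adjusted p = 0.85 from limma), but 0.27 without 4tU-bZIP1 replicate 1, its highest array, and 0.022 with arrays weighted by their quality. The phi class genes GSTF13 and GSTF4 were below 16 on all arrays, with means of 9.18 and 4.92 in 4tU-bZIP1 and of 7.72 and 4.92 in 4tU-EV.

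Several UGTs act on plant hormones, and none of those measured passed the threshold. UGT76C1 and UGT76C2, neighboring genes whose enzymes attach glucose to nitrogen atoms of cytokinins, had differences of opposite sign. UGT76C2 had a lowest value of 23.1, a median of 64.2 and a highest value of 172 in 4tU-bZIP1, against 147, 146, 95.5, 103 and 90.6 in 4tU-EV, a log2 difference of -0.85 (SE 0.44, limma adjusted p = 0.85). Replicate 3 of 4tU-bZIP1 was above all arrays of 4tU-EV and the other 4tU-bZIP1 arrays were below them. UGT76C1 had 13.1 to 63.9 in 4tU-bZIP1 against 16.3 to 17.1 in 4tU-EV, a log2 difference of 0.73 (SE 0.45, limma adjusted p = 0.85). The ranges of UGT76C1 overlapped, and the spread lay in 4tU-bZIP1.

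Among enzymes that act on abscisic acid, UGT71B6 (AT3G21780) stood out by a single array. It had a lowest value of 174, a median of 349 and a highest value of 7860 in 4tU-bZIP1, against 474, 437, 418, 371 and 245 in 4tU-EV. The value of 7860 was that of replicate 1, the array that stood apart, and the next highest of 4tU-bZIP1 was 511. The log2 difference was 0.40 (interval -1.60 to 2.41, adjusted p = 0.92 from limma), and without that array it was -0.39 (adjusted p = 0.87), so the sign of the mean came from 1 array. UGT71C5, another enzyme that glucosylates abscisic acid, had 7.19 to 17.8 in 4tU-bZIP1 against 8.90, 69.5, 17.0, 14.2 and 112 in 4tU-EV. The UGT71C5 log2 difference was -1.29 (SE 0.67, limma adjusted p = 0.85), which rests on replicates 2 and 5 of 4tU-EV, since the other arrays of both groups lay below 18.

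For salicylic acid and related defense signals, UGT76B1, which glucosylates isoleucic, salicylic and N-hydroxypipecolic acid, had 42.2 to 89.6 in 4tU-bZIP1 and 49.2 to 168 in 4tU-EV, with a log2 difference of -0.17. UGT76D1, which acts on dihydroxybenzoic acids made from salicylic acid, had 28.0 to 234 in 4tU-bZIP1 and 82.8 to 113 in 4tU-EV, with a log2 difference of -0.20. UGT74F1, a salicylic acid glucosyltransferase, was below 16 on all arrays. Thus UGT76B1 and UGT76D1 gave clear signals with overlapping ranges, and UGT74F1 gave none to compare. For auxin, UGT74D1 was below 16 on all arrays as well.

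Among enzymes of phenolic, glucosinolate and sterol metabolism, UGT74B1, which makes the desulfo precursors of glucosinolates, had 218 ± 164 in 4tU-bZIP1 (SD, n = 6) and 177 ± 41.2 in 4tU-EV (SD, n = 5), a log2 difference of 0.045 (interval -0.96 to 1.04). UGT72E2, of the group that glucosylates monolignols, had 25 to 336 in 4tU-bZIP1 against 34.9 to 78.2 in 4tU-EV. The highest UGT72E2 value was that of 4tU-bZIP1 replicate 4, and the UGT72E2 log2 difference was 0.23 (adjusted p = 0.95 from limma). UGT80B1, a sterol glucosyltransferase, had 28.8 ± 8.57 in 4tU-bZIP1 (SD, n = 6) and 21.0 ± 4.48 in 4tU-EV (SD, n = 5), a log2 difference of 0.42 (adjusted p = 0.85 from limma). The flavonol glycosyltransferase genes UGT78D1, UGT78D2 and UGT78D3 and the UGT84A genes, which make glucose esters of cinnamic acids, were below 32 on all arrays, and UGT84A1, UGT84A3, UGT84A4, UGT78D1 and UGT78D3 were below 16.

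Many of the genes lie in tandem. By the gene order of RefSeq, 37 of the 61 fall into 15 groups in which consecutive genes are at most 3 protein-coding genes apart. In 6 of these groups all genes were below 32 on every array, in 2 groups all were at 32 or more on every array (GSTU25 with GSTU26, and UGT73B5 with UGT73B4), and in 4 groups both kinds stood side by side. In the group of GSTU23, GSTU22, GSTU21 and GSTU20, GSTU22 was between 783 and 2381 over all arrays while the highest value of the other genes was 6.43. Likewise UGT85A2 was between 341 and 1145 while UGT85A7, UGT85A5 and UGT85A3 had at most 8.81. Next to UGT71B6, UGT71B1 and UGT71B8 were below 16 on all arrays. Genes side by side thus differed in whether their own probe set rose above the low end, although closely related tandem copies can share sequence, and whether probe sets of one copy also bound RNA of another was not tested.

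The arrays did not move evenly over these genes. Among the 21 genes with a mean log2 of 5 or more, 4tU-bZIP1 replicate 1 was the highest of its 6 arrays for 12 genes, where it was the highest for 24.2% of the 7000 features of that level and the lowest for 37.6%. For these genes the median difference of replicate 1 from the mean of 4tU-EV was 0.27 on the log2 scale, where for these features it was -0.25. Replicate 4 stood at 0.43 for these genes, and replicates 2, 3, 5 and 6 stood between -0.33 and -0.025. In 4tU-EV, replicate 5 was the lowest of the 5 arrays for 10 of the 21 genes and for 40.9% of the features. Single genes were also fitted with each array left out and with array weights, which gave 4tU-bZIP1 replicate 1 a weight of 0.0822.

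**Figure D4:**
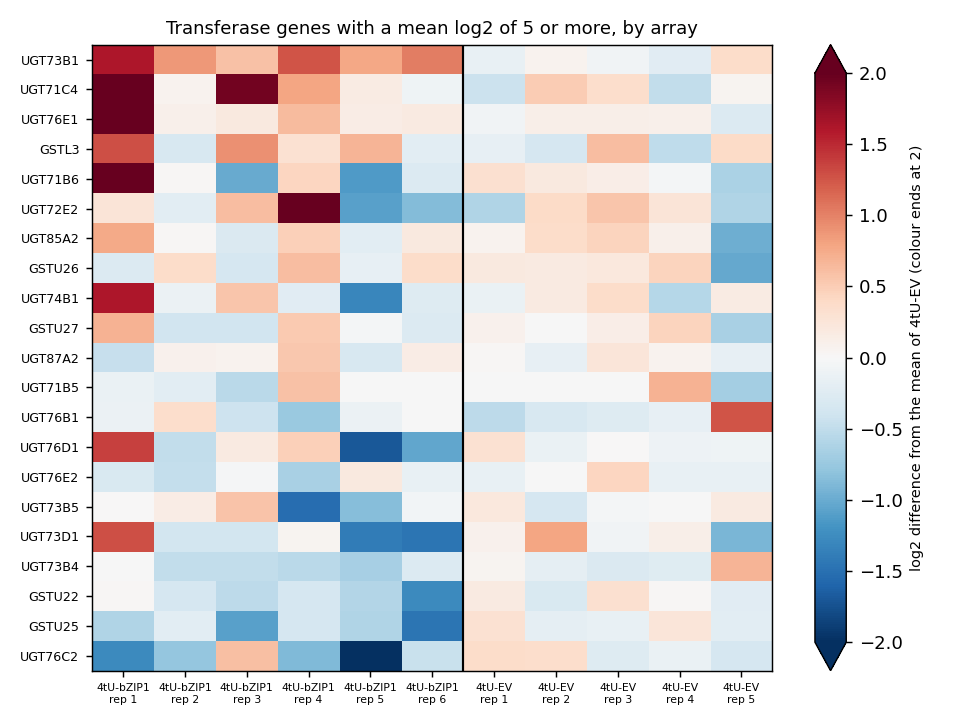
Difference of each array from the mean log2 of 4tU-EV for the 21 genes with a mean log2 of 5 or more, with the 6 arrays of 4tU-bZIP1 left of the line and the 5 of 4tU-EV right of it; colours end at a difference of 2 either way. UGT73B1 is above 0 on all arrays of 4tU-bZIP1, GSTU25 is below 0 on them, and replicate 1 holds the highest value of its group for 12 genes.

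Of 75 genes listed for related functions, 10 had a probe set that the platform table names and are not among the 61. None of these 10 passed the threshold, higher or lower, where 0.184% of all features did, so that about none would at that rate. Of glutathione supply and conjugate transport (2 tested of 22), the glutathione reductase gene GR1 had 1003 ± 225 in 4tU-bZIP1 (SD, n = 6) and 797 ± 146 in 4tU-EV (SD, n = 5), a log2 difference of 0.32 (adjusted p = 0.85 from limma). The organellar glutathione reductase gene, here EMB2360, had a log2 difference of 0.43 (SE 0.33). Of the xenobiotic response (4 tested of 20), AOR had a log2 difference of 0.49 (SE 0.35), with a highest value of 16.8. The alkenal reductase gene AER had 0.010 (SE 0.27). The MATE transporter genes DTX3 and DTX4 had -0.0074 (SE 0.31) and -0.83 (SE 0.68). Of transferases known by another symbol (4 tested of 21, with 3 others among the 61), UGT80A2 had a log2 difference of 0.32 (SE 0.28). GT72B1 had 0.30 (SE 0.27), with a highest value of 17.5, and UF3GT had 0.23 (SE 0.24), with a highest value of 14.5. IAGLU, an auxin glucosyltransferase gene, had 628 ± 441 in 4tU-bZIP1 (SD, n = 6) and 466.1 ± 50.4 in 4tU-EV (SD, n = 5), with a log2 difference of 0.14 (SE 0.44). None of the 12 genes listed for oxidative stress could be tested, so changes of that response beside the transferases were not measured.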

How the data were processed

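4tU-labeled RNA was hybridized to ATH1 arrays, 1 color, 1 array a sample. The deposited values are linear intensities of 22810 probe sets, which the authors background-corrected and normalized together with GCRMA (version not given in the sources used here). Control probe sets (64) and probe sets constant on all arrays were left out of the fit. So were unnamed probe sets with a suffix for shared sequence. Probe sets that the platform table pairs with several genes were left out too, unless the study's own gene list names them. Log2 was taken with no pseudocount, and the probe set with the highest mean stood for a gene, which left 19525 features. All of them entered 1 limma fit (lmFit, then eBayes, with limma 3.58.1 and R 4.3.3), with Benjamini-Hochberg adjustment and a threshold of 0.1. The fit was also run on simulated data with independent normal noise of equal spread across arrays. These arrays are less even, so that run does not show how well the fit does here. Single genes were also given an exact two-sided permutation test. The number of arrays, 6 and 5, limits the precision. Genes were named by rule: members past the threshold, with an unadjusted p under 0.05 (the 6 with the smallest p in each direction) or with groups apart, the 3 members of each family with the highest mean log2, members bound by bZIP1, and the up to 3 genes of each related list with the smallest limma p. The other tested genes of the related lists, DTX3 and IAGLU, were given as well. UGT71B6 and the members described by role or by neighbor were named after their values were seen. The members and lists were chosen with earlier results of these data known. The rank product test of the methods and a promoter motif search were not run. Replicate numbers were not taken as pairs of arrays, and whether arrays with the same number shared a preparation is not known here.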

Additional observations from a re-analysis of the deposited data

Results flagged for a closer look

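The 11 members named by rule were checked, in 4tU-bZIP1 and in 4tU-EV, for an array far from the others of its group. The measure was the gap to the nearest array over the range of the group, both in log2, while the values printed here are linear. Leaving out GSTF4, which lay mostly or wholly at the lowest value of the table, 4.92, this made 20 checks. In 3 of them the gap passed Dixon's 95% limit, where chance gives about 1 in 20 if values are normally distributed. UGT85A2 had 341.4 in 4tU-EV replicate 5, the lowest of its group. UGT73C7 had 14.14 in 4tU-bZIP1 replicate 2, the highest of its group, and GSTF13 had 12.17 in 4tU-EV replicate 5, the highest of its group. These UGT73C7 and GSTF13 groups lay near the low end on every array, where a small departure can pass. The rate of 1 in 20 need not hold there, so the count of 3 shows no excess over chance. A pair of further values passed the limit and is not among these 3. UGT71B6 had 7860 in 4tU-bZIP1 replicate 1 and was singled out for that value. GSTF4 had 4.94 in 4tU-bZIP1 replicate 2 and the lowest value on the other arrays of the group, so that any departure would pass.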

How the results depend on the processing

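UGT73B1 was the only gene past the threshold under any alternative. The count of genes called higher was 1 with array weights, 1 with values under 16 raised to 16, and 0 to 1 with single arrays left out (1 without 4tU-bZIP1 replicate 3), and the count called lower was 0 to 0. At an unadjusted p under 0.05 the genes higher were 3 with array weights (UGT73B1, UGT80B1 and GSTU18), 2 with each array centered on its median, 2 with quantile normalization and 1 to 2 with single arrays left out. GSTU18 was below 16 on all arrays, with a highest value of 12.8. The genes lower were 7 with array weights, which gave 4tU-bZIP1 replicate 1 a weight of 0.0822, then 1 among genes with a mean log2 of at least 5, and 2 to 4 with single arrays left out. The share of all features at an unadjusted p under 0.05 was not taken for these alternatives. Their counts at that p thus cannot be read as an excess of transferase genes. The median log2 difference of the tested genes was 0.067 with median centering, which moved the median of all features to 0.051, and 5.3e-05 to 0.046 with single arrays left out. For GSTU it was -0.11 with array weights, -0.32 with the floor of 16, -0.24 at a mean log2 of at least 5 and -0.14 to 0.010 with single arrays left out. For UGT it was 0.0029, 0.071 with median centering, -0.021 at a mean log2 of at least 5 and 0.00053 to 0.068 with single arrays left out, where 0.0029 is the value with array weights. For GSTF it was 0.067 to 0.31 and for GSTL3 0.27 to 0.60 with single arrays left out, and GSTL3 had 0.022 with array weights. UGT73B4 ran between -0.49 and -0.24 with single arrays left out, the last without 4tU-EV replicate 5. The sign turned, with no call in either fit, for GSTU27 (-0.23), UGT85A2 (-0.22) and UGT71B6 (-0.34) with array weights. With single arrays left out, GSTU27 ran between -0.14 and 0.13, UGT87A2 between -0.096 and 0.10, UGT85A2 between -0.088 and 0.27, and UGT71B6 between -0.39 and 0.71. The cause was not tested.

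Replicates 1 to 5 were also fitted with the replicate number as a block. Deviations of arrays with the same number correlated at 0.011 to 0.11, so the numbers were not taken as pairs, and no array correlated best with its own number. With the replicate block the tested genes had a median of 0.036 and UGT87A2 had -0.018, and the same 10 arrays with no replicate block, a fit chosen after seeing the data, gave 0.036 and -0.018 too. No gene of the 56 was called in either.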
